A study of Mus musculus with 18 samples.

Results

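The Hox genes of NIH/3T3 cells were examined in 6 mRNA-seq libraries, 3 from wild-type (WT) cells and 3 from XPO4 knockout (KO) cells. Of the 55401 genes in the count files, 38 were Hox genes on the list used, each found by its symbol, and 31 of them had at least 1 read. NIH/3T3 is a line of mouse embryonic fibroblasts. In the KO line, CRISPR-Cas9 left a small frame-shifting deletion in the first exon of Xpo4, which encodes the nuclear export receptor exportin 4. It is a single edited line, so the genotype and the line cannot be told apart. The series also holds 12 circRNA-seq libraries, 2 for each genotype from nuclear, cytoplasmic and whole-cell RNA. The labels do not say that the replicates were separate cultures, so a p-value measures only the spread between these libraries.

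Hox genes encode homeodomain transcription factors that give cells their position along the body axis. In mammals they lie in clusters named HoxA to HoxD. Within each cluster the genes at the 3′ end, with low numbers, are used in anterior tissue, and those at the 5′ end, with high numbers, in posterior tissue. Genes with the same number in different clusters are paralogs. Adult and cultured fibroblasts keep the Hox pattern of the site they came from, and Polycomb and trithorax complexes hold that pattern through cell division.

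The libraries titled KO held between 16974062 and 17922696 counted reads, and those titled WT between 19529104 and 22057323. In all 6 files the name inside the file carried the other genotype than the sample title. The titles were followed, so each direction given here rests on them. Xpo4 had 657, 614 and 685 reads in the WT libraries against 712, 504 and 687 in the KO libraries. These ranges overlapped (log2 fold change, KO minus WT, 0.18, SE 0.11, edgeR adjusted p = 0.193), and reads over the whole gene do not check a small deletion. Without KO replicate 2 the log2 fold change of Xpo4 was 0.34 (edgeR adjusted p = 0.000252), higher in the libraries titled KO. KO replicate 2 stood somewhat apart, with a log2 spread around its group mean of 0.156 against 0.103 to 0.126 in the other libraries.

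All 12 fibroblast markers were read, with a summed level of 26300 to 28000 CPM (counts scaled to the library total) in WT and 24000 to 26900 in KO. Blood cell markers summed to 8.75 to 10.5 CPM in WT and 3.77 to 3.98 in KO, with 9 of 14 read. Hbb-bs, Hbb-bt, Hba-a2, S100a9 and Cd3e were at 0. Multi-mapping reads were not counted, so reads that fit several genes are missing from these values. Epithelial markers summed to 5.22 to 5.89 CPM in WT and 1.0 to 1.74 in KO, with 5 of 8 read and Epcam, Cldn4 and Krt18 at 0. Endothelial markers (5 of 6 read, Tie1 at 0) summed to 2.09 to 2.97 and 1.28 to 2.24 CPM, and neural markers (6 of 8 read, Sox2 and Rbfox3 at 0) to 42.3 to 47.2 and 35.8 to 41.7 CPM, in WT and KO. Markers of other cell types were thus low beside those of fibroblasts, and the blood, epithelial and neural sums were lower in every KO library than in any WT library. Single markers went both ways: Tubb3, Nes, Gfap, Lyz2 and Hba-a1 were higher in KO, and Map2, Snap25, Ptprc, Ppbp and Krt14 lower (values below). Their part in the results on Hox genes was not tested. In bulk RNA, fewer cells of a type and less RNA per cell cannot be told apart.

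To show the DNA in front of the genes that the comparison turns on, the 250 bases before the RefSeq start (GRCm38.p6) are printed for 4 genes past the threshold, in order of level. RefSeq's table held 22 of the 38 genes. Windows that overlapped an exon of the count files' annotation were left out, and Hoxa10 is shown at its outermost start. Capitals mark the CCAAT box, the TATA box spelled TATAAA, the joint site of Pbx and Hox proteins spelled TGATNNAT or the GC box spelled GGGCGG, each on either strand, and capitals of overlapping motifs run together.
Hoxa5, chr6:52204588-52204837, minus strand: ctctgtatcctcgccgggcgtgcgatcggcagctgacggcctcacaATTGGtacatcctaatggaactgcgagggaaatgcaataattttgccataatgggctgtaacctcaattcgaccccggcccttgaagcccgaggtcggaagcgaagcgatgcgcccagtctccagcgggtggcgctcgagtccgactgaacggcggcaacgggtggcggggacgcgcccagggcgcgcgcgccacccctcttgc
Hoxd8, chr2:74704365-74704614, plus strand: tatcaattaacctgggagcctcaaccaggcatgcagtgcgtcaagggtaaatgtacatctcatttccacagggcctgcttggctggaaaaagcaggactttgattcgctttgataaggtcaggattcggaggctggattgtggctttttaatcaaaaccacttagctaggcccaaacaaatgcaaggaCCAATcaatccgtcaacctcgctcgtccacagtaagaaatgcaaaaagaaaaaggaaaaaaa
Hoxa10, chr6:52240855-52241104, minus strand: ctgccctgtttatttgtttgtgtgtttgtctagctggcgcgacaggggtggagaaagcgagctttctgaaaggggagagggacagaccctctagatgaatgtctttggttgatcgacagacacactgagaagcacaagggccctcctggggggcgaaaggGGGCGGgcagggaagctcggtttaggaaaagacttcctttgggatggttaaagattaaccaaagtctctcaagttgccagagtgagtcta
Hoxb8, chr11:96281655-96281904, plus strand: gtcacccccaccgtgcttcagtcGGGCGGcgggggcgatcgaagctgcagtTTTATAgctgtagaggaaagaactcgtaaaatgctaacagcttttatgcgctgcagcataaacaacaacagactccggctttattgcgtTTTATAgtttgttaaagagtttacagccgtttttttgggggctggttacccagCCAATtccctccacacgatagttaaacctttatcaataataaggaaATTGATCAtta
The Hoxa5 window lies in introns of Hoxa3, Hoxaas3 and Gm28308, the Hoxd8 window in an intron of the antisense gene Hoxd3os1, and the Hoxa10 and Hoxb8 windows in no annotated gene. The Hoxa5 window held 28 CpG dinucleotides, against 6 for Hoxd8, 7 for Hoxa10 and 12 for Hoxb8. A window at an inner start of Hoxa10 (chr6:52234940-52235189), not printed, held 20 CpG dinucleotides, a TATA box and a CCAAT box. Over all 32851 promoters of the table the median was 6, with quartiles of 2 and 16. The Hoxb8 window held 2 TATA boxes, which begin 199 and 110 bases before the start. It also held a match to TGATNNAT, which begins 11 bases before the start. Of all promoters, 12.4% held a TATA box, 33.8% a CCAAT box, 7.68% a joint Pbx and Hox site and 32.7% a GC box. A match is a description of the letters and not a binding site.

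Levels were compared between genes as FPKM, the count scaled to exon length and library total. In WT cells the HoxA cluster (chr6:52162417-52260880) was the most highly read, with a summed level of 71.3 ± 3.22 FPKM (SD, n = 3). HoxC (chr15:102921103-103036852) followed with 33.6 ± 0.637 and HoxD (chr2:74668310-74765142) with 23.1 ± 0.389, while HoxB (chr11:96194316-96368256) gave 0.166 ± 0.0853 FPKM. The clusters kept apart beyond these spreads. In KO cells the sums were 81.8 ± 3.51 for HoxA, 20.6 ± 0.621 for HoxC, 32.1 ± 1.84 for HoxD and 2.75 ± 0.34 for HoxB, so that HoxD stood above HoxC. The sums run over the listed genes of each cluster, and coordinates are those of mm10 (GRCm38).

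Within the clusters, reads came mainly from anterior and central genes. Hoxa5, which patterns the neck and upper thorax and the lung, had the highest mean level over the 6 libraries (28.1 FPKM), and it was highest in both genotypes. In WT, Hoxa6 (15.9 ± 2.18 FPKM, SD, n = 3), Hoxd8 (15.1 ± 0.308), Hoxc6 (13.5 ± 0.105) and Hoxa7 (12.8 ± 1.47) followed, and neighbours in this order lay within the SD of Hoxa6 or Hoxa7, except Hoxd8 and Hoxc6. In KO the order was Hoxd8 (22.2 ± 1.17), Hoxa7 (15.3 ± 1.28), then Hoxa6 (10.2 ± 2.58), Hoxa3 (10.2 ± 0.896) and Hoxc6 within their spread of each other. Of the genes of groups 10 to 13, which pattern lumbar to tail levels and the distal limb, Hoxc11 was the highest in WT, at 0.743 ± 0.111 FPKM (SD, n = 3). No read was counted for Hoxa11, Hoxa13, Hoxb1, Hoxb2, Hoxb13, Hoxd11 and Hoxd12 in any library, which allows up to 3 reads in each. These limits cover counting error only, and reads on exon bases shared with other genes were not counted, which are 35.0% of Hoxa11, 27.3% of Hoxb2 and 10.8% of Hoxd11.

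**Figure D1:**
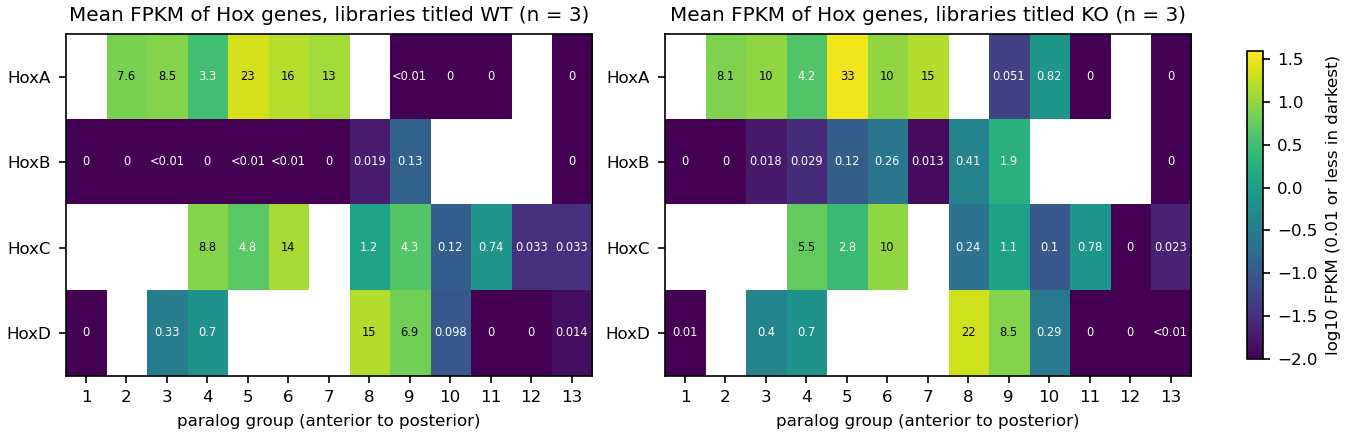
Mean FPKM of each listed Hox gene in the 3 libraries titled WT (left) and the 3 titled KO (right), with clusters as rows and paralog groups as columns, colour on a log10 scale and the value printed in each square; white squares hold no listed gene. HoxB is near 0 in WT throughout, and Hoxb9 and Hoxa10 reach 1.90 and 0.817 FPKM in KO.

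The comparison of KO with WT asks which of these genes differ in level with the loss of exportin 4. Of the 38 Hox genes, 19 passed the filter on low counts, and 14 of them were past an adjusted p of 0.05 (edgeR quasi-likelihood test, Benjamini-Hochberg over all 14688 genes tested). Of these, 8 were higher in KO (Hoxa3, Hoxa5, Hoxa7, Hoxa10, Hoxb8, Hoxb9, Hoxd8 and Hoxd9) and 6 lower (Hoxa6, Hoxc4, Hoxc5, Hoxc6, Hoxc8 and Hoxc9). Over all genes tested 48.7% were past the threshold, 25.1% higher and 23.6% lower, against 73.7%, 42.1% and 31.6% of the Hox genes tested. Hoxa10, Hoxb8 and Hoxb9 passed the filter only through the KO libraries, where they are high, so the shares of the Hox genes are not support for a difference. The 5 genes changed by at least 2-fold were those 3 with Hoxc8 and Hoxc9, 26.3% of the Hox genes tested against 9.61% of all genes. The median log2 fold change was 0.258 over the Hox genes and -0.00293 over all genes tested, and 0.0828 over the 16 Hox genes that were over the filter in both genotypes.

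By cluster, 4 of 7 HoxA genes tested were higher and 1 lower, both HoxB genes were higher, 5 of 6 HoxC genes were lower, and 2 of 4 HoxD genes were higher. No HoxC gene was higher past the threshold, and no HoxB or HoxD gene lower. In 7 of the 19 genes tested every KO library lay above every WT library, and in 6 every KO library lay below, beside 29.3% and 28.5% of all genes tested. Without KO replicate 2 the count was 16 of 21 tested, with 10 higher and 6 lower, beside 48.6% of all genes tested. Without WT replicate 3 it was 12 of 20 (41.9% of all genes) and without KO replicate 3 it was 12 of 19 (45.8%), each with 6 higher and 6 lower.

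**Figure D2:**
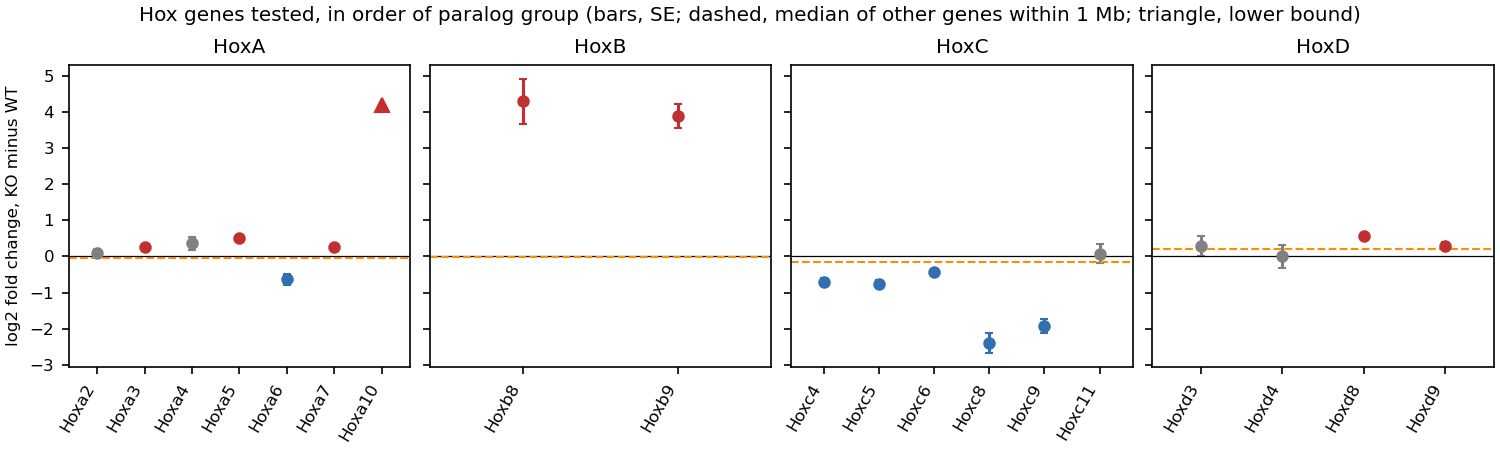
Log2 fold change (KO minus WT, y axis) of the 19 Hox genes tested, by cluster and paralog group, with SE bars; red is higher, blue lower and grey not past the threshold, the dashed line is the median of other genes within 1 Mb, and the triangle of Hoxa10 is the lower bound of 18.2-fold on the log2 scale. Hoxc8 and Hoxc9 lie lowest, and Hoxa10, Hoxb8 and Hoxb9 highest.

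In HoxC, the fall was steepest in Hoxc8 and Hoxc9, which pattern thoracic vertebrae. Hoxc9 (chr15:102976439-102985099) stood at 4.26, 4.30 and 4.44 FPKM in WT against 0.762, 1.47 and 1.19 in KO. Every KO library was far below every WT library, a 3.80-fold lower level (log2 fold change -1.93, SE 0.19, edgeR adjusted p = 2.07e-06). Hoxc8 (chr15:102990607-102994111) had 1.33, 1.05 and 1.33 FPKM in WT against 0.238, 0.158 and 0.312 in KO. It rested on 58 to 83 reads a library in WT and 8 to 15 in KO, again without overlap, and was 5.24-fold lower (log2 fold change -2.39, SE 0.28, edgeR adjusted p = 1.30e-05).

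Hoxc4, Hoxc5 and Hoxc6, which act at cervical to upper thoracic levels, fell less. Hoxc4 stood at 8.64, 8.85 and 9.07 FPKM in WT against 4.63, 5.67 and 6.13 in KO (log2 fold change -0.70, SE 0.10, edgeR adjusted p = 9.94e-05). Hoxc5 had 5.34, 4.13 and 4.86 FPKM in WT against 2.67, 2.94 and 2.84 in KO (-0.76, SE 0.12, edgeR adjusted p = 0.000154). Hoxc6 had 13.4, 13.6 and 13.5 FPKM in WT against 10.8, 9.45 and 9.81 in KO (-0.43, SE 0.07, edgeR adjusted p = 0.000342). In all 3 the groups were apart. Beyond Hoxc8 and Hoxc9, the next gene toward the 5′ end with enough reads was Hoxc11. It had 0.871, 0.684 and 0.673 FPKM in WT against 0.722, 0.801 and 0.816 in KO. Its groups overlapped, with a log2 fold change of 0.07 (SE 0.26, edgeR adjusted p = 0.843).

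In HoxA, the gene with the highest level rose and its neighbour fell. Hoxa5 (chr6:52201754-52204587) stood at 22.6, 24.6 and 22.8 FPKM in WT against 32.4, 34.2 and 32.2 in KO, without overlap, a 1.41-fold rise (log2 fold change 0.50, SE 0.06, edgeR adjusted p = 2.77e-05). Hoxa6 (chr6:52206288-52208722), the adjacent paralog of Hoxc6, had 18.1, 13.8 and 15.7 FPKM in WT against 11.0, 7.34 and 12.3 in KO. Its libraries were more scattered, yet each KO value was below each WT value, a 1.56-fold fall (log2 fold change -0.64, SE 0.16, edgeR adjusted p = 0.00551). It was the 1 HoxA gene that fell, between Hoxa5 and Hoxa7.

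Hoxa10 (chr6:52231197-52240854), which patterns lumbar vertebrae and the uterus, was not read in WT and was read in every KO library. Its counts were 0, 0 and 0 in WT against 43, 55 and 43 in KO, which is 0.738, 0.938 and 0.775 FPKM. Against the 3 reads that a count of 0 allows in each WT library, it was at least 18.2-fold higher (edgeR adjusted p = 1.32e-06). It was still below the anterior genes of the cluster in level. Between it and Hoxa7, Hoxa9 had 0, 2 and 0 reads in WT against 7, 3 and 5 in KO, under the filter, with a ratio of pooled rates of 8.75 (exact 95% counting interval 2.03 to 78.8).

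The smaller changes in HoxA were nearer to the spread. Hoxa3, needed for the thymus and parathyroids, had 9.09, 8.89 and 7.40 FPKM in WT against 9.55, 9.77 and 11.2 in KO (log2 fold change 0.26, SE 0.09, edgeR adjusted p = 0.0198). Hoxa7 had 14.5, 11.8 and 12.1 FPKM in WT against 14.6, 14.7 and 16.8 in KO (0.26, SE 0.09, edgeR adjusted p = 0.0258). The groups of both genes were apart by a narrow gap. Both calls were lost without WT replicate 3 (adjusted p of 0.108 for Hoxa3 and 0.10 for Hoxa7) or KO replicate 3 (0.0743 and 0.0924), and that of Hoxa7 also without WT replicate 2 (0.123). Other genes covered 27.1% of the exon bases of Hoxa3 and 20.4% of those of Hoxa7, and reads there were not counted for either.

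Hoxa2, which acts in the hindbrain and the second pharyngeal arch, had 7.90, 7.47 and 7.30 FPKM in WT against 8.60, 8.02 and 7.63 in KO. Its groups overlapped (log2 fold change 0.10, SE 0.10, edgeR adjusted p = 0.433). Hoxa4 had 2.59, 4.08 and 3.13 FPKM in WT against 4.40, 3.61 and 4.62 in KO, also with overlap (0.36, SE 0.18, edgeR adjusted p = 0.110). Other genes covered 15.0% of the exon bases of Hoxa2 and 16.0% of those of Hoxa4. Hoxa4 was past the threshold without WT replicate 2 (adjusted p = 0.0307) or KO replicate 2 (0.0335).

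In HoxB, almost unread in WT, Hoxb9 and Hoxb8 were read in every KO library. Hoxb9 (chr11:96271457-96276595), a gene of thoracic and rib patterning, had 7, 10 and 3 reads in WT against 92, 100 and 67 in KO, or 0.137, 0.199 and 0.0528 against 2.01, 2.17 and 1.53 FPKM. The lowest KO library was far above the highest WT library, a 14.7-fold higher level (log2 fold change 3.88, SE 0.34, edgeR adjusted p = 7.75e-07). Hoxb8 (chr11:96281905-96285315), which acts in the spinal cord and in blood progenitors, had 1, 2 and 0 reads in WT against 15, 24 and 18 in KO. The groups were apart, and the ratio of pooled rates was 22.2 (exact 95% counting interval 7.21 to 111, edgeR adjusted p = 7.76e-05). The fitted log2 fold change of Hoxb8, which at so few reads depends on the model, was 4.29, and 5.16 without WT replicate 2.

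Next to Hoxb8 and Hoxb9, other HoxB genes had a few reads, mostly in KO, and were under the filter. Hoxb6 had 0, 0 and 1 reads in WT against 10, 8 and 9 in KO, with a ratio of 31.5 (exact 95% counting interval 5.19 to 1290). Hoxb5 had 0, 1 and 0 reads in WT against 10, 2 and 5 in KO, with a ratio of 19.8 (3.11 to 828). Both were higher in every KO library than in any WT library. With no filter on low counts, Hoxb5, Hoxb6 and Hoxa9 were past the threshold, and so was Hoxb6 without KO replicate 2 (edgeR adjusted p = 0.000287). Hoxb3 (0, 0 and 1 reads in WT, 3, 0 and 1 in KO), Hoxb4 (0 in WT, 2, 2 and 0 in KO) and Hoxb7 (0 in WT, 0, 0 and 1 in KO) had too few reads for a direction. Of the exon bases of Hoxb3, 52.9% were shared with other genes.

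In HoxD, most of the level came from Hoxd8 and Hoxd9, and it was higher in KO. Hoxd8 (chr2:74704615-74707933), a trunk gene, stood at 14.7, 15.2 and 15.3 FPKM in WT against 21.5, 23.6 and 21.6 in KO, without overlap, a 1.47-fold rise (log2 fold change 0.56, SE 0.07, edgeR adjusted p = 1.15e-05). Hoxd9, a gene of the proximal limb and lower trunk, had 6.73, 6.57 and 7.43 FPKM in WT against 9.14, 9.12 and 7.14 in KO. KO replicate 3 lay within the WT range, and the call (0.29, SE 0.11, edgeR adjusted p = 0.0437) was lost under 7 alternatives, among them DESeq2 (adjusted p = 0.0587), a stricter filter on low counts (0.0504) and fits without WT replicate 1 (0.112), WT replicate 2 (0.138), KO replicate 1 (0.142) or KO replicate 2 (0.0880).

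The anterior HoxD genes were low, and their groups overlapped. Hoxd4 had 0.853, 0.782 and 0.461 FPKM in WT against 0.780, 0.587 and 0.719 in KO (edgeR adjusted p = 1.00). Hoxd3 had 0.372, 0.367 and 0.260 FPKM in WT against 0.335, 0.386 and 0.492 in KO (log2 fold change 0.28, SE 0.28, edgeR adjusted p = 0.430). Other genes covered 62.8% of the exon bases of Hoxd3 and 52.3% of those of Hoxd4, so their levels are undercounts.

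**Figure D3:**
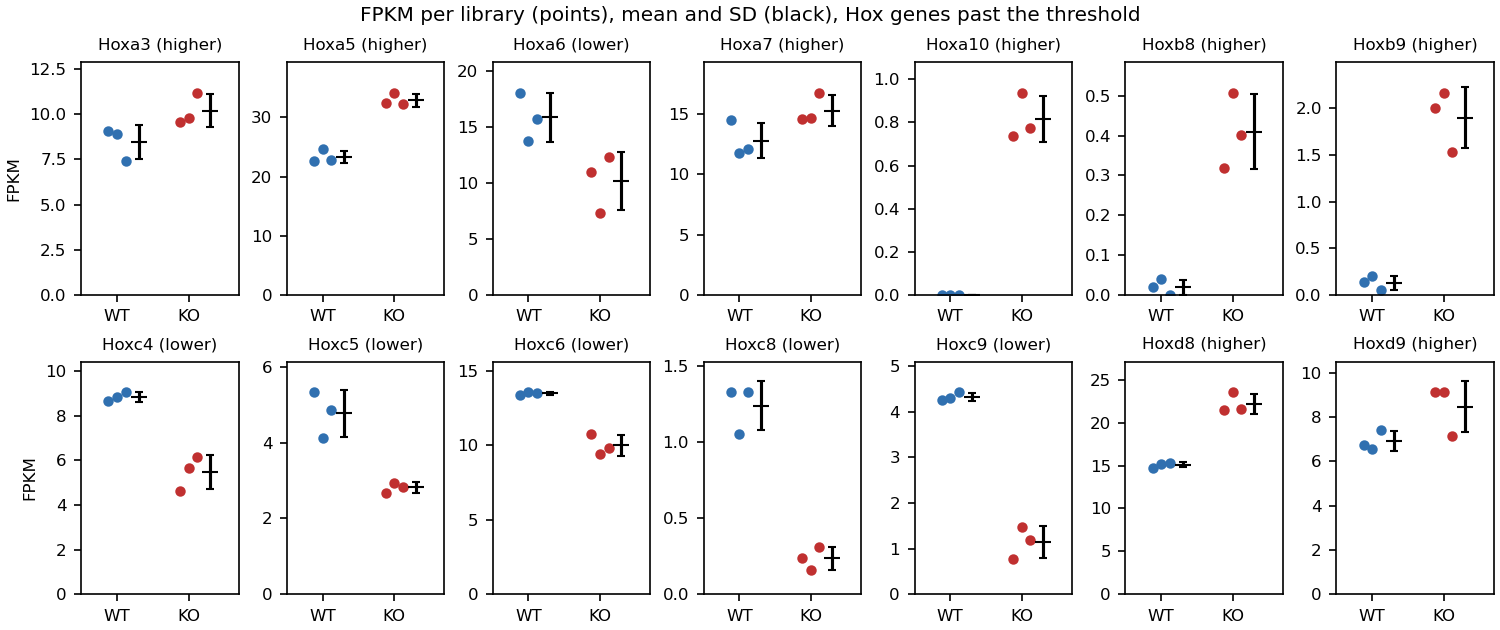
FPKM (y axis, from 0, a scale of its own in each panel) of the 14 Hox genes past the threshold in each library titled WT (blue) and KO (red), with the mean and SD of 3 libraries in black. The groups are apart in each gene but Hoxd9, where a KO library at 7.14 FPKM lies below the highest WT library at 7.43.

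The remaining genes, all posterior but Hoxd1, were at the edge of detection. Hoxd10 had 5, 2 and 4 reads in WT against 10, 8 and 10 in KO, apart but under the filter, with a ratio of 2.97 (exact 95% counting interval 1.43 to 6.61). It passed the filter and the threshold without WT replicate 1 (edgeR adjusted p = 0.0323) or KO replicate 2 (0.0326). Hoxc10 had 2, 6 and 6 reads in WT against 3, 3 and 4 in KO, a ratio of 0.833 (0.331 to 2.02). The intervals of Hoxc13 (2, 1 and 2 reads against 3, 0 and 0) and Hoxd13 (0, 2 and 0 against 0, 1 and 0) also covered equal levels. Hoxc12 was read in 1 WT library, with 2 reads, and Hoxd1 in 1 KO library, with 1 read. At this depth no difference could be shown for these last 4 genes or for Hoxc10.

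The clusters also give rise to noncoding RNAs, among them Hotair, transcribed from HoxC and known as a partner of Polycomb. Of 16 such RNAs in the files, 6 were tested, 2 were higher in KO and 1 lower, beside 25.1% and 23.6% of all genes tested. Hotair had 72, 72 and 68 reads in WT against 24, 30 and 29 in KO, a fall without overlap (log2 fold change -1.13, SE 0.22, edgeR adjusted p = 0.00086). Hoxaas2, antisense to Hoxa3, had 249, 237 and 289 reads in WT against 352, 346 and 295 in KO (0.58, SE 0.09, edgeR adjusted p = 0.000219). Haglr, antisense to the anterior end of HoxD, had 27, 20 and 23 reads in WT against 30, 41 and 31 in KO (0.76, SE 0.28, edgeR adjusted p = 0.0361). The call of Haglr was lost under DESeq2 (adjusted p = 0.0740) and with the replicate number as a block (edgeR adjusted p = 0.0605). It was also lost without WT replicate 2 (0.0992), WT replicate 3 (0.0989), KO replicate 2 (0.138) or KO replicate 3 (0.0554). The directions of the RNAs past the threshold were those of the coding genes past it in the same cluster, except Hoxa6. The counting did not use strand, so the strand of a counted read is not known. Reads on exon bases shared by an antisense gene and its partner were not counted for either.

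Genes that border the clusters were compared as neighbours that are no Hox genes. Of 9 tested, 1 was higher and 5 lower, beside 25.1% and 23.6% of all genes tested. Without WT replicate 3 the numbers were 0 and 3, beside 41.9% of all genes in either direction. Hnrnpa1, a splicing regulator near HoxC, fell by 0.49 on the log2 scale (edgeR adjusted p = 2.90e-06), Cbx5, which encodes the heterochromatin protein HP1 alpha, by 0.27 (adjusted p = 0.00452) and Smug1, a DNA repair gene, by 0.24 (adjusted p = 0.0189). Near HoxB, Ttll6 had 27, 14 and 31 reads in WT against 4, 0 and 2 in KO, a fall (log2 fold change -3.29, SE 0.61, edgeR adjusted p = 0.000574) beside Hox genes that rose. Ttll6 passed the filter on low counts only through the WT libraries, where it is high, so the shares of this list are not support for a difference. Mtx2 near HoxD was higher (0.20, adjusted p = 0.0314) and Hibadh near HoxA lower (-0.21, adjusted p = 0.0124). The calls of Mtx2, Hibadh and Smug1 were lost without WT replicate 3 (adjusted p of 0.0932, 0.0519 and 0.0805), and each was lost without at least 1 other library. Over all other genes tested within 1 Mb, a window chosen after values were seen, the median log2 fold change was -0.0355 around HoxA (12 genes), -0.011 around HoxB (34), -0.146 around HoxC (36) and 0.201 around HoxD (11). Around HoxC 5 of the 36 were higher and 17 lower, beside 25.1% and 23.6% of all genes tested. Over all genes tested on the same chromosome the medians were -0.128 for HoxA, 0.0378 for HoxB, -0.117 for HoxC and 0.0183 for HoxD.

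Hox proteins bind DNA with TALE homeodomain cofactors of the Pbx, Meis and Pknox families. Of 11 TALE genes tested, 2 were higher and 2 lower, beside 25.1% and 23.6% of all genes tested, and 7 were not past the threshold. Tgif2, a repressor, had 52, 64 and 62 reads in WT against 34, 23 and 29 in KO, a fall without overlap (log2 fold change -0.83, SE 0.24, edgeR adjusted p = 0.0105). Meis2 (0.25, adjusted p = 0.00289) and Pbx3 (0.36, adjusted p = 0.0203) rose, but the call of Pbx3 was lost without WT replicate 1 (0.0619), WT replicate 3 (0.0510) or KO replicate 3 (0.0777). Without KO replicate 2, 3 were higher and 4 lower, beside 48.6% of all genes in either direction.

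Among the chromatin regulators of Hox genes, Polycomb complexes, which silence them, had 9 of 31 tested genes higher and 6 lower, beside 25.1% and 23.6% of all genes tested. Phf1 (log2 fold change 0.89, SE 0.06, edgeR adjusted p = 1.07e-07), Pcgf5 (0.75, adjusted p = 3.85e-06) and Phc2 (0.47, adjusted p = 1.41e-05) rose. Phf19, which like Phf1 encodes an accessory protein of PRC2, had 0, 1 and 3 reads in WT against 33, 17 and 22 in KO (adjusted p = 6.83e-05). Phf19 passed the filter on low counts only through the KO libraries, where it is high, so the shares of this list are not support for a difference. Mtf2, another accessory gene of PRC2, fell by 0.47 on the log2 scale (adjusted p = 0.000103). The PRC2 core genes Eed, Suz12 and Ezh2 had log2 fold changes of 0.05 (adjusted p = 0.475), -0.02 (adjusted p = 0.790) and -0.27 (adjusted p = 0.00258), so only Ezh2 of these passed, lower. Mtf2 and these core genes were chosen after their values were seen.

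MLL and trithorax complexes, which keep Hox genes active, had 1 of 21 tested genes higher and 11 lower, beside 25.1% and 23.6% of all genes tested. Mllt3, part of the super elongation complex, rose (log2 fold change 0.67, SE 0.06, edgeR adjusted p = 5.73e-07). Kmt2b, a histone methyltransferase, had 3008, 2697 and 2961 reads in WT against 1913, 1600 and 1792 in KO, a fall without overlap (-0.49, SE 0.07, edgeR adjusted p = 9.77e-05). Rbbp5 (-0.45, adjusted p = 0.000193), Hcfc1 (-0.49, adjusted p = 0.00039) and Setd1b (-0.40, adjusted p = 0.00067) fell too. In KO replicate 2 longer genes were read less (Spearman correlation of its deviation with exon length -0.541, across 11692 genes, which are not independent). The correlation was 0.352, -0.122 and -0.293 in WT replicates 1, 2 and 3, and 0.289 and 0.441 in KO replicates 1 and 3. Without KO replicate 2, 1 gene of this list was higher and 9 lower, beside 48.6% of all genes in either direction. This fit keeps the other libraries, whose deviations also varied with length. The part of exon length in this result was not tested.

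Retinoic acid and Cdx factors switch on Hox genes in the embryo. Cdx2 and Cdx4 had no reads, and Cdx1 between 0 and 9. Of 12 genes of this list tested, 5 were higher and 1 lower, beside 25.1% and 23.6% of all genes tested. Aldh1a1 passed the filter on low counts only through the KO libraries, where it is high, so these shares are not support for a difference. Dhrs3, a retinal reductase that limits retinoic acid synthesis, had 25, 40 and 40 reads in WT against 239, 228 and 184 in KO, 7.19-fold higher (log2 fold change 2.85, SE 0.18, edgeR adjusted p = 3.30e-08). Crabp1, a retinoic acid binding protein, rose 2.14-fold (adjusted p = 1.27e-07), and the receptor Rarg (log2 fold change 0.30, adjusted p = 0.000265) and Aldh1a1, a retinal dehydrogenase with 1 to 3 reads in WT and 10 to 21 in KO (adjusted p = 0.000303), were also higher. The members that rose thus act for and against retinoic acid signalling. Rdh10, which makes retinal, rose (0.52, adjusted p = 0.000759), and the receptor Rxra fell by 0.28 on the log2 scale (adjusted p = 0.00235).

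Other transcription factors that mark position in fibroblasts and limb mesenchyme changed in both directions. Of 25 tested, 9 were higher and 12 lower, beside 25.1% and 23.6% of all genes tested. Of those past the threshold 5 changed by at least 2-fold, beside 9.61% of all genes tested. Tbx3, a limb and mammary patterning gene, had 1569, 1430 and 1718 reads in WT against 390, 410 and 469 in KO, 3.18-fold lower (log2 fold change -1.67, SE 0.08, edgeR adjusted p = 3.16e-09). Prrx1, a limb mesenchyme factor, was 1.68-fold lower (adjusted p = 1.18e-07). Foxc2, a mesoderm factor, was 2.31-fold higher (adjusted p = 3.24e-08), Twist2, a dermal fibroblast factor, 2.47-fold higher (adjusted p = 7.21e-07) and Tbx18 1.85-fold higher (adjusted p = 7.83e-07). The share past the threshold was 21 of 25, beside 48.7% of all genes tested, and the list's median log2 fold change was -0.166. Meox1 passed the filter on low counts only through the WT libraries, where it is high, so this share is not support for a difference.

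**Figure D4:**
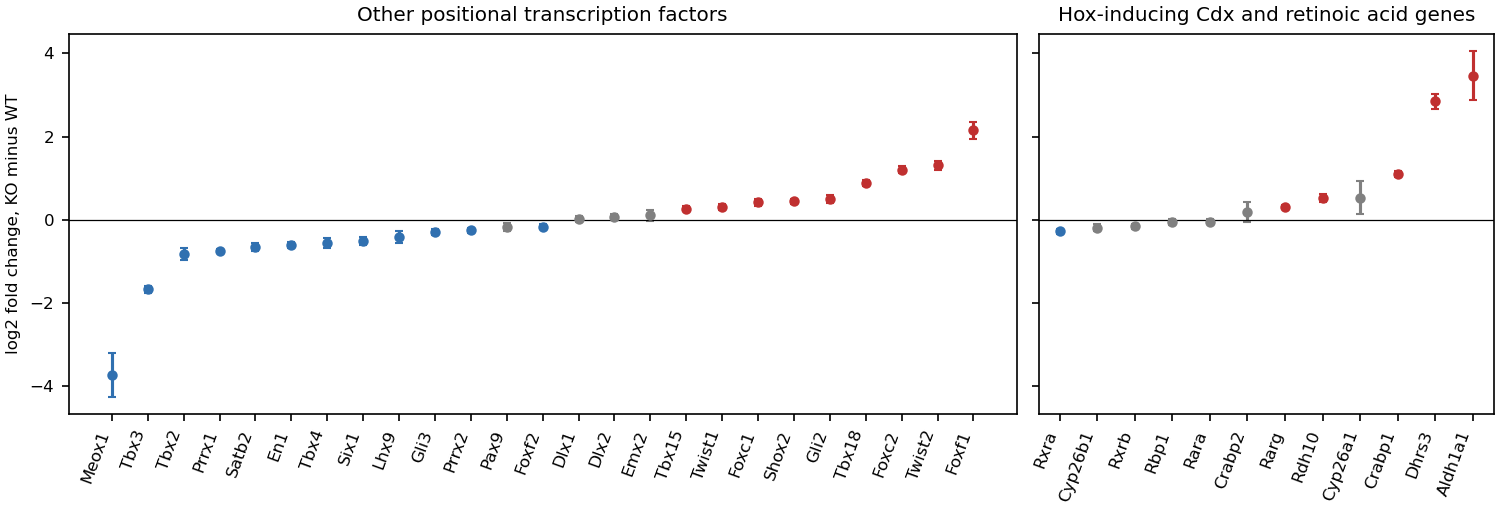
Log2 fold change (KO minus WT, y axis) with SE bars of the 25 other positional transcription factors tested (left) and the 12 tested genes of the retinoic acid list (right); red is higher, blue lower and grey not past the edgeR threshold. Meox1 and Tbx3 lie lowest on the left at -3.74 and -1.67, and Aldh1a1 and Dhrs3 highest on the right at 3.47 and 2.85.

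No circRNA with an end inside a listed Hox gene, or spanning one, was found in any of the 12 circRNA-seq libraries. Entries listed with several positions, 5 to 7 in each nuclear library and 0 in the other libraries, were not searched. The libraries held between 2189 and 81941 junction reads, which allows a share of up to 0.137% in the shallowest and 0.00366% in the deepest library. Counts of 1 are listed, but the filters used before deposit are not given in the sources used here, and a circRNA that they removed would not count toward this limit. No comparison of Hox circRNAs between genotypes or fractions could be made.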

How the data were processed

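The authors aligned the mRNA-seq reads of the 6 libraries with HISAT2 and counted them per gene with featureCounts (version 2.0.0) on the GENCODE annotation of mm10, without strand, multi-mapping reads or reads shared between genes, per the file headers and the paper. The deposited values were raw counts per gene, beside each gene's summed exon length. For circRNA-seq the authors deposited counts of backsplice junction reads per circRNA. The columns of other samples left out numbered 0. Gene symbols were matched to 55141 of 55401 gene IDs.

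Genotypes were compared with the quasi-likelihood test of edgeR 4.0.16 in R 4.3.3 (TMM factors, glmQLFit, glmQLFTest, filterByExpr at a minimum count of 10) over the 6 mRNA-seq libraries. P-values were adjusted after Benjamini and Hochberg, and 0.05 was the threshold. The SE is the log2 fold change divided by the square root of the F statistic. DESeq2 (version 1.42.0), other scalings, other filters, a replicate block and leaving out each library were alternatives. FPKM was computed from the counts, library totals and exon length (Python 3.11.15, pandas 2.3.3, numpy 2.4.6). Counting intervals are exact (scipy 1.17.1). The script was tested on simulated data. Totals were 16974062 to 22057323 reads. The sources used here name no molecular identifiers, so intervals cover counting error only.

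The Hox genes and the other lists were chosen with earlier results of these data known. Every listed Hox gene is named, and of each other list up to 5 genes with the smallest p, while Mtx2, Rxra, Meox1, Mtf2, Hba-a1, the Cdx genes, the PRC2 core genes and the markers at 0 were chosen after their values were seen. Some genes of these lists are counted but not reported here by name. Sequences are from RefSeq (GRCm38.p6).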

Additional observations from a re-analysis of the deposited data

How the results depend on the processing

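Over all alternatives between 12 and 17 Hox genes were past the threshold, against 14, and none of 227 values of single Hox genes changed direction while called. The 6 lower calls and those of Hoxa5, Hoxa10, Hoxb9 and Hoxd8 were kept under each alternative, and Hoxb8 was kept wherever it was tested, since at least 1 CPM in 3 libraries left it out. The number of genes past the threshold was 6143 to 7696, against 7151. Leaving out each replicate in turn, the log2 fold change of Xpo4 was 0.10 to 0.34, with the highest value and the only call without KO replicate 2. The cause was not tested. Between 5 and 11 of 12 fibroblast markers were past the threshold, with 7, 6 and 5 without WT replicates 1, 2 and 3. Of all genes tested, these fits called 41.4%, 41.2% and 41.9%. Libraries with the same replicate number shared little of their deviation (correlations of 0.165, 0.0965 and -0.192), so the numbers were not taken as pairs. With the replicate block 13 Hox genes were past the threshold, without Hoxd9, and 7124 of all genes, and Xpo4 was at 0.17 (edgeR adjusted p = 0.154). The depth limits the genes with few reads, and 3 libraries a group limit changes near the spread.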

Other observations

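Some markers of other cell types were read in these fibroblasts and differed between the genotypes. Krt14, a keratin of basal epithelium, had 89, 91 and 112 reads in WT against 18, 9 and 8 in KO (log2 fold change -2.83, SE 0.28, edgeR adjusted p = 2.26e-06). Ptprc, the pan-leukocyte antigen CD45, had 108, 103 and 105 reads in WT against 32, 26 and 21 in KO (-1.78, SE 0.21, edgeR adjusted p = 1.03e-05), and Ppbp, a platelet chemokine, 78, 56 and 61 in WT against 10, 12 and 12 in KO (adjusted p = 1.83e-05). Other blood markers went the other way, with 3, 1 and 2 reads of the lysozyme gene Lyz2 in WT against 11, 10 and 13 in KO (2.64, SE 0.54, edgeR adjusted p = 0.00127) and 0, 0 and 0 reads of the globin gene Hba-a1 against 8, 7 and 6, which was under the filter. Tubb3, a neuronal tubulin, had no reads in WT against 19, 37 and 22 in KO (adjusted p = 2.50e-05). The neural markers Map2 (-0.82, adjusted p = 9.22e-05) and Snap25 (-0.54, adjusted p = 0.00338) were lower, and Nes (0.50, adjusted p = 0.00112) and Gfap (1.07, adjusted p = 0.0138) higher, with the call of Gfap lost without WT replicate 1 (0.0622). In each of these genes the groups did not overlap. Of the fibroblast markers Thy1 rose (0.86, adjusted p = 4.53e-08) and Fbln2 fell by 0.42 on the log2 scale (adjusted p = 9.44e-06). Of 12 fibroblast markers tested 6 were higher and 5 lower, beside 25.1% and 23.6% of all genes tested. With WT replicate 3 left out 3 were higher and 2 lower, beside 41.9% of all genes in either direction.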
